A study of Homo sapiens with 10 samples.

Results

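STAT3 sites of transformed MCF-10A-ER-Src cells were examined where they lie closest together in the genome. Neighbouring STAT3 summits (the positions of highest read pileup) on chromosomes 1 to 22 and X were joined into a chain when they were at most 12500 bp apart, and chains with 10 or more summits were kept. This rule found 517 chains among 38664 STAT3 regions of any size. The chains hold 6720 of 80265 STAT3 summits, or 8.37%. Because the rule uses the summit positions of the transformed STAT3 list, the number of those summits in a chain, their spacing and their pileup are given below as a description. The comparisons rest on the other 9 peak lists.

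MCF-10A-ER-Src cells are an immortalized human breast epithelial line with an inducible Src oncoprotein, in which v-Src is joined to the part of the estrogen receptor that binds tamoxifen. All 10 samples, the non-transformed ones included, carry this fusion. Transformed cells received 1 µM 4-hydroxy-tamoxifen for 12 h, and the library names in the file headers put non-transformed, ethanol-grown cells at 36 h, so the culture times of the 2 states differ. ChIP-seq was performed in each state for STAT3, for FOS, JUN and JUNB of the AP-1 family, and for the NF-κB subunit NFKB1. There is 1 library for each protein and state, so no difference between states has a replicate check, and culture, library and state cannot be told apart. Wilson 95% intervals are given for shares of summits and cover the sampling of sites only. Summits of 1 chain are neighbours and not independent, so these intervals are too narrow.

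STAT3 is a cytokine-responsive factor that enters the nucleus after tyrosine phosphorylation, and the STAT3 antibody named in the labels is sold against the tyrosine-phosphorylated form. AP-1 factors are dimers of FOS and JUN family proteins that bind open regulatory regions of many cell types, including breast epithelium. NFKB1 encodes the p50 subunit of NF-κB, which is released into the nucleus by inflammatory signals. Groups of binding sites that lie within about this distance of each other are commonly stitched together when large enhancer regions are defined, and such regions often lie near genes that are highly expressed in a cell type. Whether the chains described here act as enhancers was not measured.

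The libraries hold 4837474 to 22082403 reads after removal of duplicate tags and 13252 to 164605 peaks. The transformed STAT3 library has 0.821 times the reads of the non-transformed one but 80265 against 42810 peaks, whereas the transformed NFKB1 library has 2.0 times the reads of its partner and 73822 against 13252 peaks. No input control was used in peak calling. A group of 5 chains stands apart, because at least 50% of their STAT3 summits coincide with a peak in all 9 other lists, including the shallow NFKB1 list of non-transformed cells. In hg19 coordinates these are chr2:92272994-92324202 with 16 summits, chr2:132996335-133035119 with 21, chr10:42363395-42403122 with 25, chr18:18511681-18520287 with 19 and chr19:27732119-27739353 with 10. The chain on chromosome 18 is the densest of all, with 22.08 summits per 10 kb. The shares below are given with these 5 chains and, where stated, without them. An input library, which would show whether these regions gather reads without an antibody, was not analysed here.

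A chain spans a median of 37063 bp from its first to its last summit, with quartiles of 28437 and 48687 bp and a range of 7234 to 138572 bp. It holds a median of 12 summits and at most 46. The chains cover 20242135 bp in all. Summit density is 3.33 per 10 kb at the median and varies from 1.59 to 22.1. Most chains are therefore only slightly larger than the threshold, and very large ones are rare. At the edge of the rule, the 153 chains with exactly 10 summits have a median span of 30195 bp and a median summed pileup (extended reads over the summits) of 199. The 166 regions just outside it, with 9 summits, have a median span of 28226 bp and a summed pileup of 174. No gap separates chains from smaller regions in the number of summits, as the plot of regions by summit number shows.

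**Figure D1:**
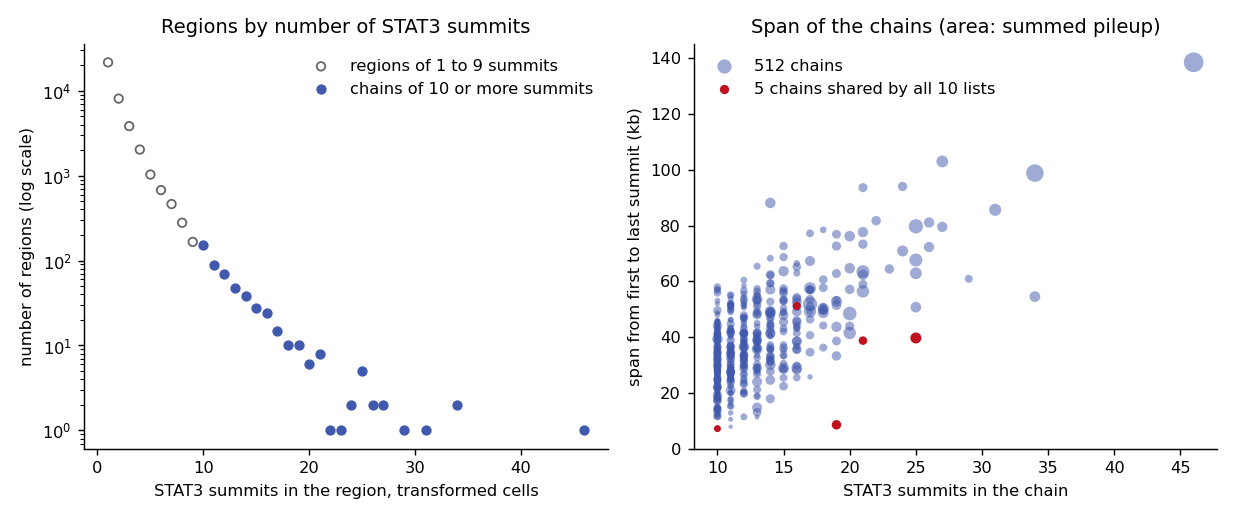
Left, the number of STAT3 regions (log scale) against the number of STAT3 summits they hold in transformed cells, with open points for regions of 1 to 9 summits and filled points for the 517 chains. Right, the span of each chain in kb against its number of summits, with point area proportional to summed STAT3 pileup. The count falls smoothly from 21586 single summits to 1 chain of 46 summits, and the 5 chains shared by all lists (red) include the densest chain.

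Within a chain the summits are unevenly spaced and unevenly occupied. The median gap between neighbours is 2037 bp, with quartiles of 804 and 4811.5 bp, and 30.9% of the 6203 gaps are shorter than 1000 bp. The strongest summit of a chain has a median pileup of 61 and accounts for a median of 23.3% of the pileup summed over the chain, with a range of 6.30% to 48.2%. In 79 chains (15.3%) its pileup is at least 2 times that of the next. The chains thus combine a few strong sites with many weak ones. Chain summits have a median pileup of 13 and a median fold enrichment over local background of 9.23, compared with 10.0 and 7.22 for single summits. They hold 10.8% of the pileup of the whole list on 8.37% of its summits.

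Strong and weak summits of the same chain differed in how often they were STAT3 sites before transformation. Among the strongest summits of the 517 chains, 89.4% (86.4 to 91.7) lie within 300 bp of a STAT3 summit in non-transformed cells. The share is 78.5% for the second strongest, 68.3% for the third and 14.1% (11.4 to 17.4) for the weakest. NFKB1 in transformed cells accompanies 93.0% of the strongest and 34.8% of the weakest summits, and AP-1 (a summit of FOS, JUN or JUNB) accompanies 97.9% and 66.0%. NFKB1 was already present in non-transformed cells at 36.9% of the strongest and 6.58% of the weakest. The decline from strongest to weakest is present for every list plotted and is steepest for the earlier STAT3 peak. STAT3 pileup falls along the same order, and for weak sites the absence of a peak and a peak too weak to be called cannot be told apart.

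**Figure D2:**
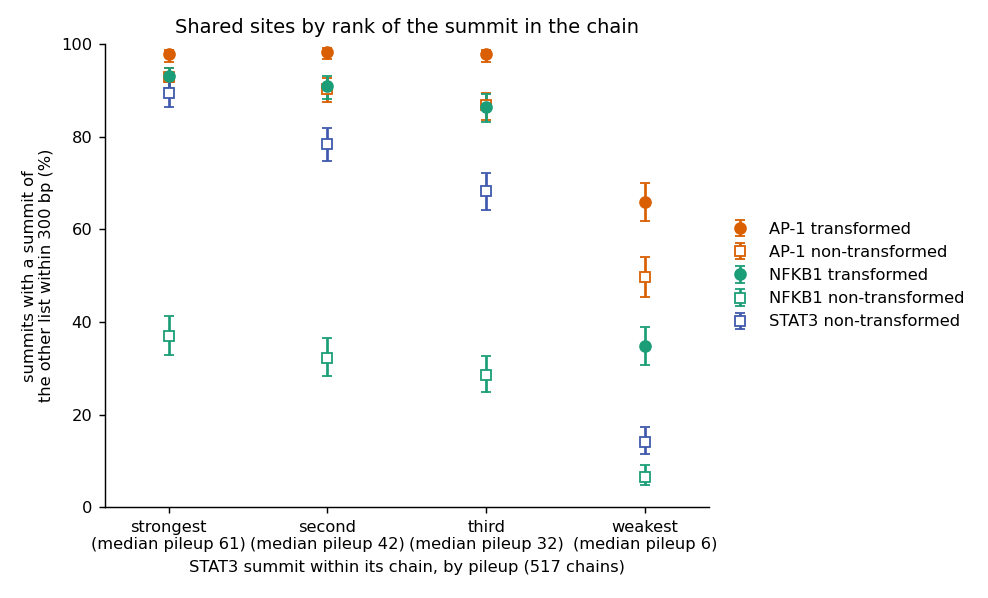
The percent of STAT3 summits with a summit of another list within 300 bp (vertical axis), for the strongest, the second, the third and the weakest summit of each of the 517 chains (horizontal axis, with median pileup). Filled circles are transformed and open squares non-transformed lists, and bars are Wilson 95% intervals. STAT3 of non-transformed cells falls from 89.4% to 14.1% and AP-1 of transformed cells from 97.9% to 66.0%.

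Compared with STAT3 sites elsewhere, chain summits had NFKB1 more often and AP-1 about as often. NFKB1 of transformed cells is found at 65.9% (64.8 to 67.1) of the summits in chains and at 56.2% (55.9 to 56.6) of those outside, against 57.1% of all STAT3 summits. The share rises with the size of the region, from 48.7% of single summits to 58.0% in regions of 2 to 4 and 62.5% in regions of 5 to 9. NFKB1 of non-transformed cells is found at 17.6% in chains and 11.9% outside, against 12.4% of all and 14.6% in regions of 5 to 9 summits. In the chains from chr2:92272994, chr2:132996335 and chr10:42363395, which all lists share, it is at 93.8%, 90.5% and 92.0% of the summits. AP-1 of transformed cells is at 87.7% (86.9 to 88.4) inside and 87.8% (87.5 to 88.0) outside, with 87.8% of all summits, and AP-1 of non-transformed cells is at 73.9% in each class, with 73.9% of all. Nearly the same share of STAT3 summits thus has an AP-1 peak in a dense chain and elsewhere. Without the 5 chains shared by all lists, the shares in chains are 65.6% for NFKB1 and 87.5% for AP-1 in transformed cells.

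**Figure D3:**
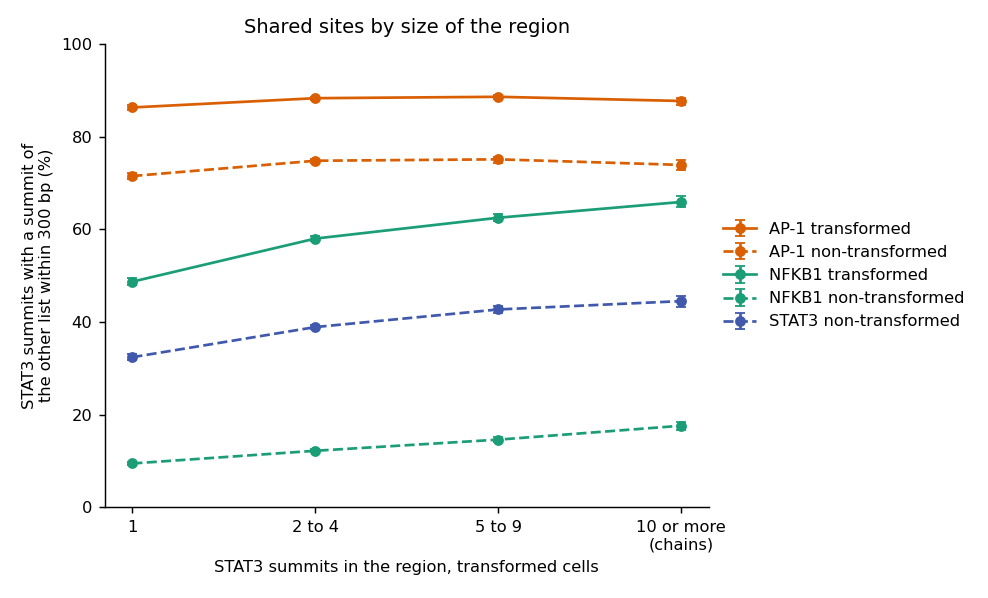
The percent of transformed STAT3 summits with a summit of another list within 300 bp (vertical axis), by the number of STAT3 summits in the region (horizontal axis). Solid lines are transformed and dashed lines non-transformed lists, and bars are Wilson 95% intervals. NFKB1 of transformed cells rises from 48.7% to 65.9%, whereas AP-1 of transformed cells stays between 86.3% and 88.6%.

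The AP-1 proteins do not all follow the same pattern. FOS, the most frequent partner, is at 81.5% of chain summits in transformed and 66.6% in non-transformed cells, compared with 82.6% and 67.8% outside (82.5% and 67.7% of all summits). JUN is at 73.9% and 56.7% in chains, compared with 74.8% and 52.6% outside (74.7% and 53.0% of all). JUNB is at 64.2% and 44.2% in chains, compared with 66.6% and 47.3% outside (66.4% and 47.0% of all). JUN of non-transformed cells is thus the AP-1 list that is more frequent in chains, by 4.14 percentage points over all other summits, and both JUNB lists are less frequent there. Regions of 5 to 9 summits have JUN of non-transformed cells at 55.4% and single summits at 48.4%, so most of this difference is shared with the regions most like the chains. All 4 other proteins of transformed cells meet at 49.7% of chain summits and 45.4% of the others (45.7% of all), and all 9 other lists at 9.96% and 6.35% (6.65% of all). Regions of 5 to 9 summits have all 4 at 49.6%, about as often as the chains, and all 9 at 8.05%. The 5 chains set apart by this last measure hold 11, 16, 20, 12 and 6 of the 669 chain summits with all 9.

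Part of these differences moves with STAT3 pileup. Of the chain summits, 34.4% have a pileup of 21 or more, compared with 22.9% of the others. Within that band NFKB1 of transformed cells is at 89.9% (88.6 to 91.1) of chain summits and 81.8% (81.2 to 82.4) of the others, and between pileups of 12 and 20 it is at 69.6% and 63.6%. Among the weakest summits, with a pileup of 4 to 7, the shares are 37.3% (34.9 to 39.9) and 35.2% (34.5 to 35.9). The NFKB1 difference is thus seen within the band of pileups from 12 to 20, and the intervals overlap at the weakest. Pileup was held only to the band, and regions of 5 to 9 summits were not compared by band. Whether pileup accounts for the difference was not tested. The strongest band runs up to 143, so pileup is not matched within it. The upper quartile of pileup is 28 over all chain summits and 24 in regions of 5 to 9 summits. AP-1 of transformed cells is at 98.2% in and 97.8% outside chains in the strongest band but at 70.2% (67.7 to 72.5) and 76.0% (75.4 to 76.6) in the weakest, so weak summits inside chains lack AP-1 more often than equally weak summits elsewhere.

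STAT3 of non-transformed cells was found at 44.5% (43.3 to 45.7) of chain summits and 37.8% (37.5 to 38.2) of the others, against 38.4% of all. In regions of 5 to 9 summits the share is 42.7% (41.9 to 43.5), and this interval overlaps that of the chains. Within bands of pileup these shares are close. They are 16.8% and 16.3% at a pileup of 4 to 7, 26.8% and 25.8% at 8 to 11, 41.6% and 42.6% at 12 to 20, and 74.8% and 72.2% at 21 or more. The higher overall share in chains therefore goes with the larger share of strong summits among them. Along a chain, the summit after one with an earlier STAT3 peak has one itself in 45.3% of cases, and the summit after one without in 44.1%.

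Most chains hold both older and newer STAT3 sites, which with 10 or more summits and an earlier peak at 38.4% of all STAT3 summits is not particular to them. In all but 2 of the 517 chains at least 1 summit had a STAT3 peak before transformation, and in 205 at least 50% of the summits did. Only 1 chain had an earlier peak at every summit. Of the 6720 chain summits, 3731 lacked an earlier STAT3 peak, and 2206 of these (59.1%) had an AP-1 peak there, compared with 63.1% of such summits outside chains. Another 911 had AP-1 in transformed cells only. Finally, 525 chain summits (7.81%) had no partner in any other list, compared with 8.55% outside. AP-1 of transformed cells was at 50% or more of the summits in all 517 chains and at every summit in 121, beside a share of 87.8% over all STAT3 summits. NFKB1 of transformed cells reached 50% in 459 chains and every summit in 4, beside 57.1% over all STAT3 summits. Counts over chains depend on these overall shares and on the number of summits in a chain, and nothing is called particular to the chains from them.

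Each chain also holds many peaks of the other proteins. In transformed cells the median chain has 13 FOS, 11 JUN, 9 JUNB and 9 NFKB1 peaks beside its 12 STAT3 peaks. In non-transformed cells the chain has 10 FOS, 8 JUN, 6 JUNB, 6 STAT3 and 2 NFKB1 peaks at the median. Peaks of all 10 lists are present in 419 chains, and 95 chains have no NFKB1 peak before transformation. These counts depend on the size of the chains and the length of the lists. They were not set beside other regions, so nothing is called particular to the chains from them. Per 100 kb, the chains hold 36.3 FOS, 30.0 JUN, 24.3 JUNB and 25.9 NFKB1 peaks in transformed cells. Regions of 5 to 9 STAT3 summits hold 34.6, 28.3, 23.7 and 22.6, so they are nearly as densely occupied. Over the whole length of the chromosomes, taken to the last peak, the values are 5.43, 4.20, 3.33 and 2.43.

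**Figure D4:**
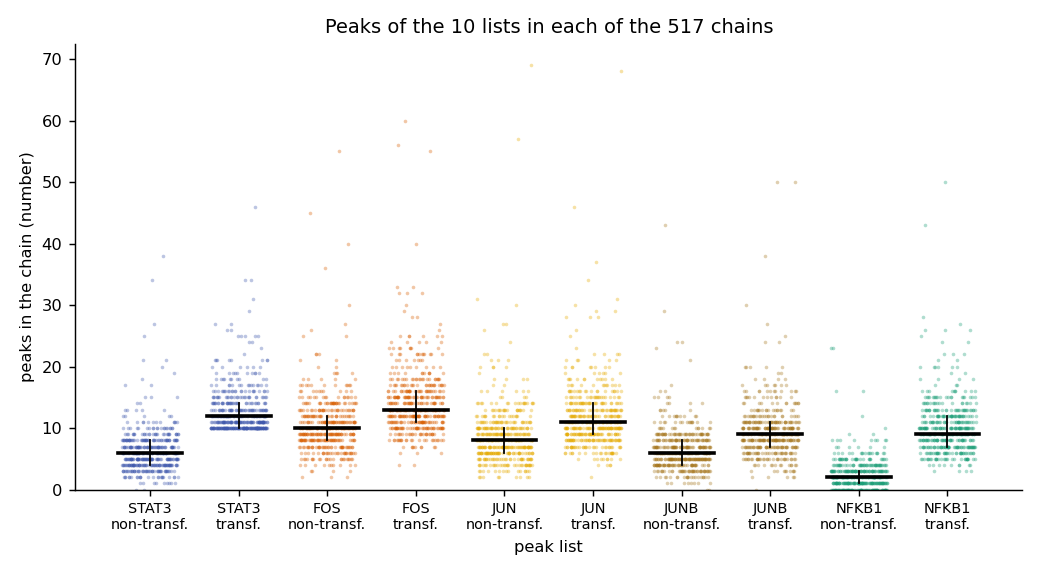
The number of peaks of each of the 10 lists (horizontal axis) inside each of the 517 chains (vertical axis, 1 point per chain). Black horizontal bars are medians and vertical bars run from the lower to the upper quartile. NFKB1 has a median of 2 peaks in non-transformed and 9 in transformed cells, and FOS has 10 and 13.

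More peaks were listed after transformation in most chains. The transformed list has more peaks than the non-transformed one in 506 chains for STAT3 (78.0% of all STAT3 regions), 515 for NFKB1 (56.6%), 445 for JUNB (34.5%), 432 for JUN (39.9%) and 456 for FOS (33.3%). Larger regions hold more peaks and so fewer ties, and for STAT3 the direction is fixed in part by the rule. The nearest comparison is with regions of 5 to 9 summits, of which 97.3% have more NFKB1 peaks, 75.1% more FOS, 77.2% more JUN and 72.7% more JUNB peaks in transformed cells, against 99.6%, 88.2%, 83.6% and 86.1% of chains.

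Summed over the chains, NFKB1 peaks numbered 1266 in non-transformed and 5286 in transformed cells, a ratio of 4.18 (3.93 to 4.44), while outside the chains the ratio was 5.72 (5.61 to 5.83). The chains thus took 9.55% of the NFKB1 peaks of non-transformed and 7.16% of those of transformed cells. The ratio for JUN was 1.33 in chains (1.28 to 1.38) and 1.58 outside (1.56 to 1.59). It was 1.35 and 1.38 for FOS, and 1.46 and 1.34 for JUNB. The depth ratios between states are 2.0 for NFKB1, 1.16 for JUN, 1.19 for FOS and 1.72 for JUNB, and their part in these ratios was not tested. For NFKB1 and JUN the ratio of peak numbers is thus lower in the chains than over all other peaks of the same lists. The intervals treat peaks as independent and cover no spread between libraries, so they are too narrow. Regions of 5 to 9 summits hold 4.81 and 22.6 NFKB1 peaks per 100 kb in non-transformed and transformed cells. The chains hold 6.21 and 25.9. For JUN the values are 19.9 and 28.3 in those regions and 22.6 and 30.0 in the chains. For STAT3 the numbers are 3290 and 6720, a ratio of 2.04 (1.96 to 2.13) that the choice of chains on the transformed list raises.

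At summits called in both states, STAT3 pileup per 1000000 reads was 1.90 times higher after transformation in chains (median of 2989 summits, quartiles 1.27 and 2.89) and 1.64 times higher outside them (27820 summits). The medians are 1.37 and 1.41 for JUN, 1.14 and 1.08 for NFKB1, 1.13 and 1.06 for JUNB, and 1.04 and 0.989 for FOS. On this scale STAT3 has the largest ratio of the 5 proteins. The order differs for fold enrichment over local background, where the median ratios in chains and outside are 1.74 and 1.74 for NFKB1, 1.68 and 1.5 for STAT3, 1.46 and 1.40 for JUNB, 1.45 and 1.53 for JUN, and 1.11 and 1.08 for FOS. Reads were extended to 150 bp in the non-transformed and 119 bp in the transformed STAT3 library, and the part of this in the ratio was not tested. The chains were selected on the transformed STAT3 library, so its ratio inside them is a description.

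The same rule applied to the other lists shows how far dense clustering depends on the list. STAT3 of non-transformed cells gives 61 chains with 819 summits. Of the 517 transformed chains 54 (10.4%) overlap them, and of the 61 non-transformed chains 52 (85.2%) overlap a transformed one. The number of chains depends on the length of a list. All transformed lists were therefore also reduced to their 73822 most significant peaks, an alternative chosen after seeing the data. At this length STAT3 gives 374 chains and NFKB1 382, whereas FOS gives 182, JUN 171 and JUNB 145. At this length STAT3 and NFKB1 thus give more chains than the AP-1 lists. As deposited, the order differs, with 2084 chains for FOS, 1051 for JUN, 517 for STAT3, 449 for JUNB and 382 for NFKB1. The cut leaves the NFKB1 list whole but keeps only the most significant peaks of the longer lists, and the part of this in the difference was not tested. At 73822 peaks, 221 of the 374 STAT3 chains (59.1%) overlap 57.9% of the NFKB1 chains. Chains of FOS, JUN and JUNB, which are fewer, overlap 33.7%, 32.9% and 27.3% of the STAT3 chains. Of these FOS, JUN and JUNB chains, 69.2%, 71.9% and 70.3% overlap a STAT3 chain, a larger share than for NFKB1. With both STAT3 lists at 42810 peaks, transformed cells give 77 chains and non-transformed cells 61, and 22 overlap (28.6% and 36.1%). The excess of chains in transformed cells is thus small at equal list length, and most of these chains do not overlap one of the other state. In the lists as deposited, only 38.4% of all transformed STAT3 summits have an earlier STAT3 peak. An overlap also needs 10 or more summits in each list, so the low overlap is not called particular to the chains.

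Chains are spread over all 23 chromosomes but not evenly. Chromosome 1 has 69, with 8.27 chains per 1000 summits, chromosome 21 has 9.43 per 1000, and chromosome X has 2.48 per 1000 with 5 chains. The share of summits in chains runs from 3.02% on X to 11.6% on chromosome 1. Another chain lies within 100 kb of 79 chains (15.3%), and the median distance to the nearest chain is 1144 kb.

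The largest chain, chr14:61928239-62066811, has 46 summits over 138572 bp and the highest summed STAT3 pileup, 1773. It holds 46 STAT3 peaks in transformed and 21 in non-transformed cells. NFKB1 peaks number 43 and 10, FOS 56 and 36, JUN 46 and 27, and JUNB 38 and 24, in the same order. All 5 proteins thus have more peaks there after transformation. Its strongest summit, at position 62032762, has a STAT3 fold enrichment of 53.2 in transformed and 21.8 in non-transformed cells, and it holds only 6.30% of the pileup of the chain, the lowest such share of any chain.

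The chain with the next highest pileup, chr17:76310471-76409314, has 34 summits over 98843 bp and a summed pileup of 1414. Its strongest summit, at position 76347662, has a pileup of 124 and is at the same base in both states, with fold enrichments of 67.5 and 62.3 in transformed and non-transformed cells. It is thus a strong STAT3 site that was occupied before transformation. It lies 37.191 kb into the chain, and FOS summits lie just past the 300 bp limit, at 37.523 kb in non-transformed and 37.524 kb in transformed cells. Within the limit, JUN is found with fold enrichments of 18.1 and 10.8 and JUNB with 12.6 and 4.2 in transformed and non-transformed cells. The whole chain has 19 STAT3 peaks in non-transformed and 34 in transformed cells, and 5 and 28 NFKB1 peaks.

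**Figure D5:**
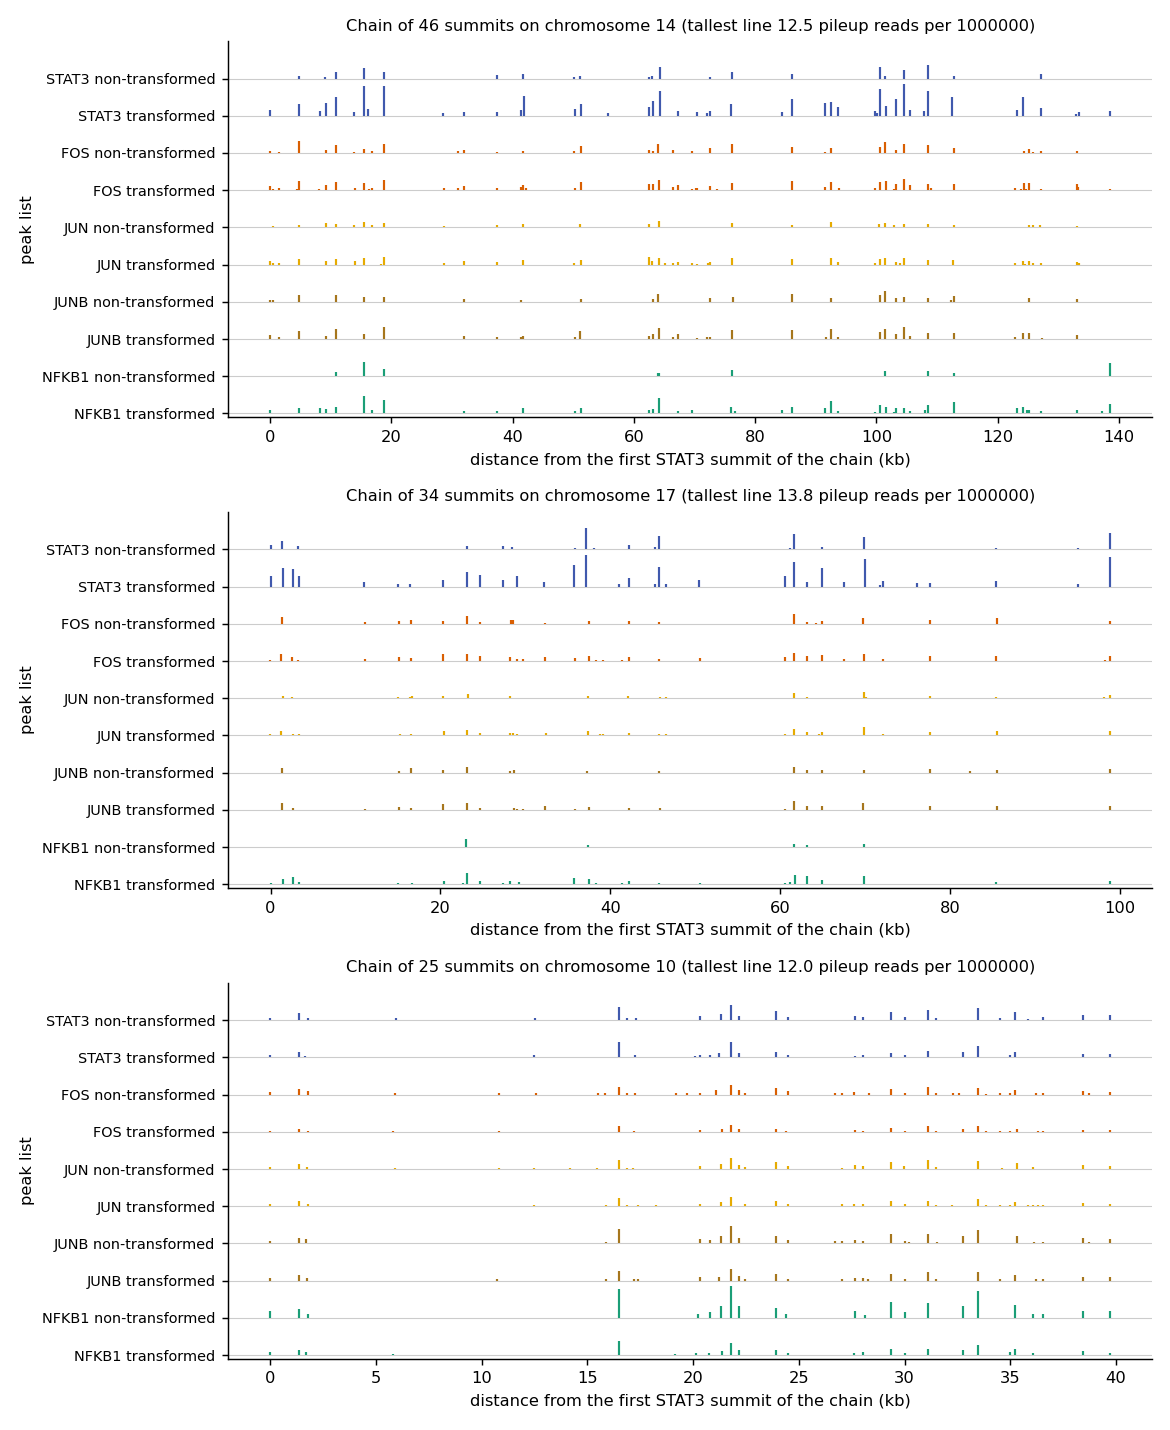
Peaks of the 10 lists (vertical axis) along 3 chains, by distance from the first STAT3 summit in kb (horizontal axis). The height of each line is pileup per 1000000 reads on 1 scale per panel (tallest 12.5, 13.8 and 12.0). The chains of 46 and 34 summits have more STAT3 and NFKB1 peaks in transformed cells, whereas the chain of 25 summits on chromosome 10 has like positions in all 10 lists and its tallest peaks in NFKB1 of non-transformed cells.

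Chains of many summits or high pileup vary in how much STAT3 they held before. At chr1:207032799-207084654, with 17 summits, 47.1% of the summits had an earlier STAT3 peak. Its strongest summit had fold enrichments of 50.8 and 41.5 in transformed and non-transformed cells. At chr1:209527928-209607709, with 25 summits, 68.0% of the summits had an earlier STAT3 peak, and the strongest had fold enrichments of 50.6 and 47.5 in transformed and non-transformed cells. At chr2:228231977-228280473, with 20 summits, 45.0% had one, and the strongest had 66.9 and 6.0. At chr6:43969573-44055266, named for its 31 summits and not for its pileup, 22.6% had one, and the strongest had 66.0 and 8.7. Among these, the leading site was already strongly enriched before transformation in the chains on chromosome 1. It was many times more enriched after transformation in the others. The last chain has 3 NFKB1 peaks before transformation and 26 after, and FOS enrichment at the leading site was 5.4 before and 24.1 after.

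A pair of chains had no STAT3 peak before transformation. At chr7:134106979-134158928, with 10 STAT3 summits, FOS peaks numbered 8 and 10 in non-transformed and transformed cells, JUN 8 and 8, JUNB 5 and 7, and NFKB1 2 and 9. At chr4:80990869-81022887, also with 10 STAT3 summits, FOS peaks numbered 6 and 16, JUN 5 and 7, JUNB 3 and 8, and NFKB1 0 and 7. AP-1 was thus on both regions in the absence of a STAT3 peak, at 80.0% and 70.0% of the later STAT3 summits. Both have modest summed STAT3 pileups, 117 and 152. The chain at chr20:48291441-48344239 had an earlier STAT3 peak at 1 of its 15 summits, and its strongest summit had fold enrichments of 48.1 and 5.5.

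The opposite case is a chain whose STAT3 peaks were mostly in place. At chr14:75741727-75777396, 91.7% of the 12 summits had an earlier STAT3 peak, and the leading summit had fold enrichments of 25.7 in transformed and 31.2 in non-transformed cells. NFKB1 had 0 peaks there before and 14 after transformation, and JUN had 14 in each state. JUNB had 5 before and 0 after, which makes this the only chain without a JUNB peak in transformed cells. The chain at chr14:69143366-69172933 had an earlier STAT3 peak at 90.0% of its 10 summits. The other 3 chains with the highest such shares are among the 5 that all lists share.

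The lowest AP-1 share of any chain is 50%, found among others at chr3:185512582-185541197, chr9:137248067-137272042 and chr21:33815051-33836336, with 10 summits each. In these 3 the strongest summit does have AP-1 and holds 39.9%, 39.7% and 37.3% of the pileup. They are thus built of 1 strong STAT3 site with AP-1 and weaker sites of which many have none. Of the 2313 chain summits with a pileup of 21 or more, 42 lack AP-1 in transformed cells. The strongest summit lacks it in 11 chains, 8 of which had STAT3 there before transformation, beside 89.4% of the strongest summits of all 517 chains. The strongest of these, chosen after its values were seen, is at chr11:114165650, with a pileup of 102, a fold enrichment of 65.4 a peak of NFKB1 in transformed cells, and peaks of STAT3 and AP-1 in non-transformed cells.

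A neighbouring pair of chains on chromosome 1, 12863 bp apart, also stands out. The chain chr1:144988295-145042866 has 34 STAT3 peaks in transformed and 38 in non-transformed cells, and chr1:145055936-145116874 has 29 and 34. They are among only 10 chains with fewer STAT3 peaks after transformation, 4 of which belong to the 5 shared by all lists. JUN peaks number 68 and 69 in the first chain and 37 and 57 in the second, in transformed and non-transformed cells. These are the highest JUN numbers of any chain in non-transformed cells. NFKB1 peaks number 50 and 7 in the first chain and 26 and 9 in the second.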

How the data were processed

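The data are 10 peak lists from ChIP-seq in MCF-10A-ER-Src cells, grouped by the sample labels. For each library on its own, the authors called peaks by MACS 2.0.10.20131216 with no control, from 36 bp tags at a q-value cutoff of 0.05, with 1 tag kept per position and a local background of 1000000 bp. The submitters' processing notes name Bowtie, MACS2 and hg19. The deposited pileup is the signal, a number of extended reads not scaled by depth. The deposited fold enrichment is a ratio to the local background. Significance was deposited as −log10 p-values and q-values.

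Sites were shared when summits lay within 300 bp (windows of 150 bp on each side). AP-1 is the union of 3 lists. Shares have Wilson 95% intervals, and ratios of peak numbers exact binomial ones. With 1 library per protein and state, no test was made between conditions. Depth (4837474 to 22082403 reads) limits the weak peaks. The members and the named chains (most summits, highest pileup, extreme shares) were chosen with earlier results of these data known. Peaks run past the GRCh38 end of 14 of 23 chromosomes, so the reference at hand, a different build, was not used for sequences, genes or motifs. Alternatives changed the distance, summit minimum, window and peak threshold. Python 3.11.15, numpy 2.4.6, pandas 2.3.3, scipy 1.17.1 and matplotlib 3.10.9 were used. The code was tested on simulated data, in which it found 40 of 40 planted chains. The simulated background summits lay farther apart than the joining distance, so this checks the joining step and not a dense background.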

Additional observations from a re-analysis of the deposited data

Results flagged for a closer look

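Outside chromosomes 1 to 22 and X, which the chains do not cover, 50 STAT3 peaks of transformed cells were listed. The largest region there, on chromosome Y, holds 16 STAT3 summits with pileups of at most 18. This region was pointed out because it lies in peaks that no comparison uses and would pass the rule for a chain. The other 9 lists have 11 to 33 peaks there, and STAT3 of non-transformed cells has 19. Whether the reads listed there come from chromosome Y was not tested. The mitochondrial chromosome has a region of 11 STAT3 summits, with pileups of at most 136, that would also reach the summit minimum. Neither region is counted as a chain.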

How the results depend on the processing

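The number and size of the chains follow the rule, whereas the differences from other summits kept their direction for NFKB1 of transformed cells (6.72 to 13.9 percentage points) and for STAT3 of non-transformed cells (4.68 to 8.21) under every alternative run. The AP-1 difference was between -2.31 and 0.55 points. With the largest distance halved there were 147 chains, with 2.22% of the summits, a median span of 19851 bp, NFKB1 at 69.3%, STAT3 of non-transformed cells at 46.4% and a STAT3 peak ratio of 1.93. With 25000 bp there were 1293 chains (23.7%, 77905 bp, NFKB1 63.3%, earlier STAT3 42.9%). At least 8 summits gave 962 chains (13.0%, 31698 bp), and at least 15 gave 119 (2.76%, 51208 bp, NFKB1 67.2%). A stricter q threshold in every list gave 78 chains with 2.21% of the summits, a span of 41166 bp, AP-1 at 85.4% in transformed and 66.6% in non-transformed cells, NFKB1 at 54.5%, earlier STAT3 at 38.3% and a ratio of 2.45. Cutting the transformed STAT3 list to the length of the other, an alternative chosen after seeing the data, gave 77 chains with 2.21%, 41271 bp, AP-1 at 94.6% and 82.0%, NFKB1 at 81.4%, earlier STAT3 at 59.4% and a ratio of 1.43. Windows of 50 bp gave AP-1 at 79.1% and 65.0%, NFKB1 at 55.7% and earlier STAT3 at 38.2%, and whole peaks gave AP-1 of non-transformed cells at 72.7%. Among peaks of at least 2 pileup reads per 1000000 the STAT3 ratio was 3.51. Merging summits within 150 bp, and leaving out the 5 chains shared by all lists (chosen after seeing the data), moved no value beyond its interval. The cause of the other changes was not tested, apart from those that the rule itself makes.

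No paired analysis was possible because each protein and state has 1 library. Sequences, motifs and genes at the chains were planned and not run, because no hg19 genome or annotation was used here. Absence of a weak peak in a shallow list, NFKB1 of non-transformed cells above all, does not show absence of binding, and regions that gather reads without an antibody were not separated from bound ones.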
